A study of Mus musculus with 9 samples.

Results

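Oligodendrocyte precursor cells (OPCs) were selected from the single-cell RNA sequencing barcodes by counts of unique molecular identifiers (UMIs). A barcode had to hold 1000 to 20000 UMIs, 100 to 6000 genes and under 10% mitochondrial UMIs. It also had to hold at least 4 UMIs of Pdgfra and Cspg4 together, at least 1 UMI of Olig1, no UMI of Frzb, and at most 1 UMI each of Dcn and Dcx. Of 18390 retained barcodes, 57 met the rule (0.310%). The measured values of Pdgfra, Cspg4, Olig1, Frzb, Dcn and Dcx therefore chose the cells, and levels that set OPCs apart from other cells are given below as a description, with no test.

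The cells came from TiCY mice, in which tamoxifen (TAM) switches on an eYFP reporter in neural stem cells that express Tlx. Wild-type (WT) mice were compared with IFNAGR knockout (KO) mice, which lack the receptor genes Ifnar1 and Ifngr1 and carry the same reporter. young WT mice were 16 weeks old with TAM at 10 weeks and a chase of 6 weeks. old WT mice were 80 weeks old with TAM at 71 weeks and a chase of 9 weeks. young KO mice were 16 weeks old with TAM at 7 weeks and a chase of 9 weeks. old KO mice were 92 to 105 weeks old, with TAM at 85 and 98 weeks and a stated chase of 9 weeks, values that do not add up, so the age or chase of this group is uncertain. Each group was 1 droplet reaction (1 library) in which cells of 2 mice were pooled after hashtag labelling. eYFP+ and GLAST+ cells of the ventricular-subventricular zone (vSVZ) and eYFP+ and eYFP-/PSANCAM low cells of the rest of the brain (RoB) were sorted, and O4+, CD45+ and Ter119+ cells were left out, so OPCs already displaying O4 were outside the sort.

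OPCs are the dividing glial cells of the adult brain that give rise to myelinating oligodendrocytes. They respond to platelet-derived growth factor through Pdgfra, carry the proteoglycan NG2 encoded by Cspg4, sense neuronal activity through glutamate and GABA receptors, and are kept in the lineage by the transcription factors Olig1, Olig2 and Sox10. Interferons act on cells through paired receptor chains and STAT transcription factors, which switch on interferon-stimulated genes (ISGs) and genes of antigen presentation.

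By the values that chose them, members held between 5 and 91 UMIs of Pdgfra and Cspg4, with a median of 21, and no barcode with Olig1 held 3 or 4. Just outside the threshold, 8 barcodes with Olig1 held 2 of these UMIs and 13 held 1. Olig1 itself ranged from 1 to 74 UMIs per member, with a median of 36.

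A further 26 barcodes passed the Pdgfra, Cspg4 and Olig1 thresholds but were left out because they held Frzb UMIs or more than 1 Dcx UMI. Frzb was found in 14 of them, at no more than 3 UMIs, and Dcx exceeded 1 UMI in 18, between 2 and 13. The excluded barcodes numbered 3 in young WT, 5 in old WT, 5 in young KO and 13 in old KO. They carried OPC genes at like levels, as C1ql1 stood at 1306 UMIs per 1000000 (CPM) against 1713 in members. They also carried Stmn2, a gene of young neurons, at 233 CPM in 7 of 26 barcodes, and members held no Stmn2 UMI.

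**Figure D1:**
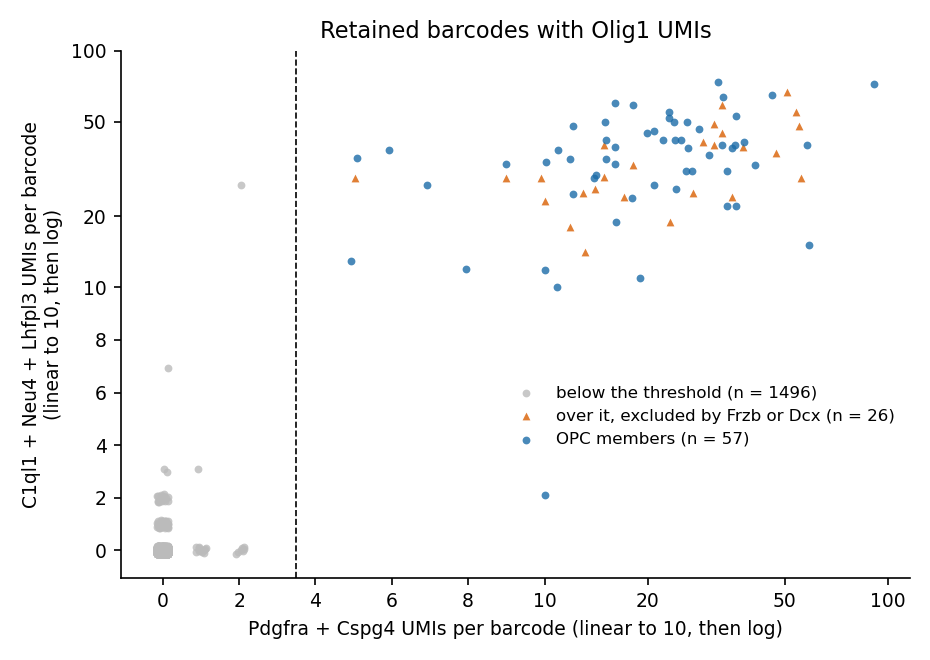
UMIs of Pdgfra and Cspg4 together (horizontal) against UMIs of C1ql1, Neu4 and Lhfpl3 together (vertical), 1 point per retained barcode with Olig1, both axes linear to 10 and logarithmic above, with small random offsets so that points do not overlap and a dashed line at the threshold. The 57 OPCs and the 26 excluded barcodes share the upper right, and 5 of the 1496 barcodes left of the threshold held 3 or more UMIs of the 3 genes that the rule did not use.

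The label held against OPC genes that the rule did not use. C1ql1, Neu4 and Lhfpl3 together reached at least 3 UMIs in 56 of 57 OPCs, with a median of 38 and a highest count of 74. The exception was 1 OPC with 2 such UMIs. C1ql1, a secreted C1q-like synaptic ligand at chr11:102939264-102946688 (GRCm38), stood at 1997 CPM in young WT, 1690.3 in old WT, 1615 in young KO and 1701 in old KO OPCs. In all other retained barcodes of the same libraries it stood between 5.02 and 12.6 CPM. Neu4, a sialidase at chr1:94020451-94028334, stood between 339 and 566 CPM in the 4 libraries and at no more than 2.07 CPM in other barcodes. Lhfpl3, a tetraspan membrane protein, lay between 1486 and 2022 CPM, against at most 22 elsewhere.

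Of 16 listed OPC markers outside the rule, 15 had UMIs in OPCs. Their sum was 19825.5 CPM in young WT, 20660.4 in old WT, 19201 in young KO and 18480.1 in old KO OPCs. It lay between 4532 and 4905 CPM in astroglia (Aqp4 barcodes), 577 to 599 in oligodendrocytes, 537 to 606 in neuroblasts and 69.4 to 168 in microglia. Much of the sum came from Cspg5 at 4871 CPM and Ptprz1 at 4436 CPM, a membrane proteoglycan and a receptor phosphatase that astroglia also held, at up to 3146 and 1675 CPM. Sox10, the transcription factor of the whole oligodendrocyte lineage, stood at 488 CPM, and oligodendrocytes reached 415 CPM. Gpr17, the remaining marker, was listed at 0 in every retained barcode of every type.

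The 25 genes with the largest OPC level relative to all other barcodes in their lowest library were led by C1ql1, Neu4 and Lhfpl3. The log2 ratio in the lowest library ran from 6.60 for C1ql1 to 3.96 for Igfbp3. Among them were Tnr, an extracellular matrix glycoprotein, at 600 CPM, and Sulf2, an enzyme that trims sulfates from heparan sulfate chains, at 411 CPM. Adhesion molecules (Pcdh15, Dscam, Cdh13) and the neurexin ligand Nxph1 at 572 CPM were also in the set. Olig2 stood at 799, 1283, 1047 and 1408 CPM in young WT, old WT, young KO and old KO. Pllp, a myelin-associated membrane protein, stood at 673 CPM in OPCs and at 717 CPM in oligodendrocytes, so it did not set OPCs apart from oligodendrocytes.

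Several defining markers of other cells had no UMI, while genes shared with astroglia and other glia were present. The microglial genes Cx3cr1 and P2ry12 had no UMI. Microglia markers gave 17 UMIs, from 1 gene of 12, at 22.6 to 59.9 CPM over the libraries against 40634 to 51560 in microglia. The astroglial genes Gja1, Gjb6 and Aldh1l1 had no UMI, and the summed astroglia list ran from 1378 to 2068 CPM over the 4 libraries, against 21663 to 24358 CPM in astroglia. Most of it in OPCs was Slc1a2, a glutamate transporter, at 939.8 CPM. The neuroblast list ran from 219.6 to 478 CPM, against 10468.5 to 11662 in neuroblasts, and Dlx1, Sp9 and Stmn2 had no UMI. The olfactory ensheathing glia list was present in all 57 OPCs, at 2336, 1479, 1938 and 1875 CPM in young WT, old WT, young KO and old KO, against 500.2 to 670 CPM in astroglia. Most of it was Fabp7, a fatty acid binding protein that glial progenitors also make, at 1366 CPM, and Il13ra2, Fibin and Mybpc1 had no UMI. Frzb was at 0 by the rule. Ependymal markers gave 2 UMIs, pericyte markers 3 and fibroblast markers 3 in all 57 OPCs. Endothelial markers gave 29 UMIs, from 2 genes of 9, at 25.8 to 99.8 CPM over the libraries against 3.19 to 21.7 in astroglia. Neuron markers gave 76 UMIs, from 6 genes of 10, at 129 to 160 CPM. That list stood at 15.7 to 44.6 CPM in astroglia and 144 to 671 CPM in neuroblasts.

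**Figure D2:**
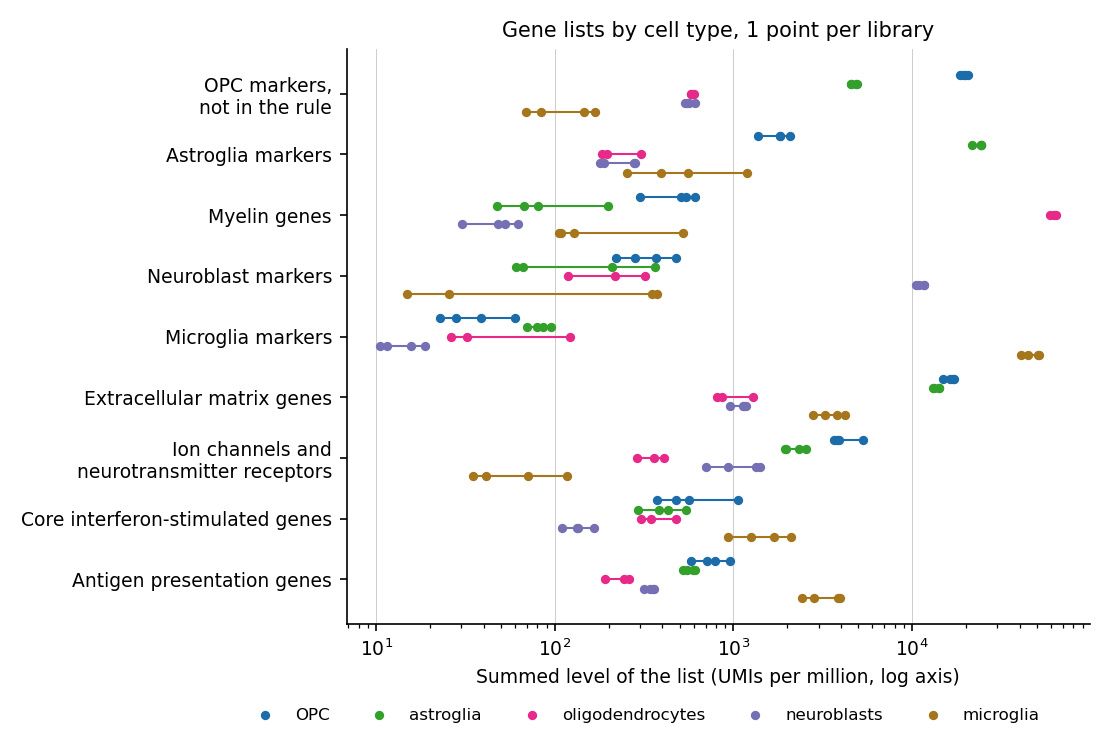
Summed level of 9 gene lists in CPM (logarithmic axis) in OPCs, astroglia, oligodendrocytes, neuroblasts and microglia, 1 point per library with a line over the range. OPCs stood highest for the OPC markers outside the rule and for ion channels and neurotransmitter receptors, and held 299 to 611 CPM of myelin genes against 58878.5 to 63870.6 CPM in oligodendrocytes.

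OPCs gave 546904 UMIs in all: 50087 in young WT, 132524 in old WT, 77390 in young KO and 286903 in old KO. Median UMIs per OPC were 6609, 10968, 8285 and 10220 in that order, and median genes were 2777, 4057, 3359 and 3718, so depth was lowest in young WT. Median mitochondrial shares were 2.47% to 3.10%. No OPC was a predicted doublet. Hashtag counts were low, with medians of 3.5 to 7 per OPC, and 13 of 57 OPCs could be given to a mouse and tissue, 11 of them in old KO. No comparison between mice, or between vSVZ and RoB, could therefore be made. Every comparison below is between single libraries and has no test. The ranges in parentheses are exact 95% intervals that cover counting error only, not the spread between mice or between cells. Batch, reaction and group cannot be told apart. Old WT mice were labelled 80 weeks old and old KO mice 92 to 105 weeks, so comparisons of genotypes in old OPCs also differ in age. Young WT and young KO mice differed in TAM age (10 and 7 weeks) and chase (6 and 9 weeks).

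OPCs made up a larger share of the old libraries. They were 7 of 5916 retained barcodes in young WT (0.118%, 0.0476 to 0.244), 12 of 2423 in old WT (0.495%, 0.256 to 0.864), 9 of 6638 in young KO (0.136%, 0.0620 to 0.257) and 29 of 3413 in old KO (0.850%, 0.570 to 1.22). The share was 4.19-fold higher in old WT than in young WT (1.52 to 12.5) and 6.27-fold higher in old KO than in young KO (2.89 to 15). Between genotypes the ratio of KO to WT was 1.15 in young (0.380 to 3.62) and 1.72 in old mice (0.849 to 3.69), and both intervals contain 1.

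The share depended on what else was sorted. Neuroblasts numbered 1197 in young WT and 1632 in young KO but 243 in old WT and 391 in old KO. Of OPCs and astroglia together, OPCs were 0.863% in young WT, 1.38% in old WT, 0.566% in young KO and 2.46% in old KO. On that denominator the ratio of old to young was 1.60 in WT (0.581 to 4.80) and 4.35 in KO (2.0 to 10.4), and the WT interval contains 1. Among barcodes with at most 1 Dcx UMI, the ratios were 2.83 (1.03 to 8.49) and 4.45 (2.05 to 10.7). Oligodendrocytes, gated on Mog, Mag and Cldn11, numbered 0 of 5916 barcodes in young WT, where 3 counts of the total set a limit of 0.0507% and the exact interval reaches 0.0623%, 59 in old WT, 8 in young KO and 66 in old KO.

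**Figure D3:**
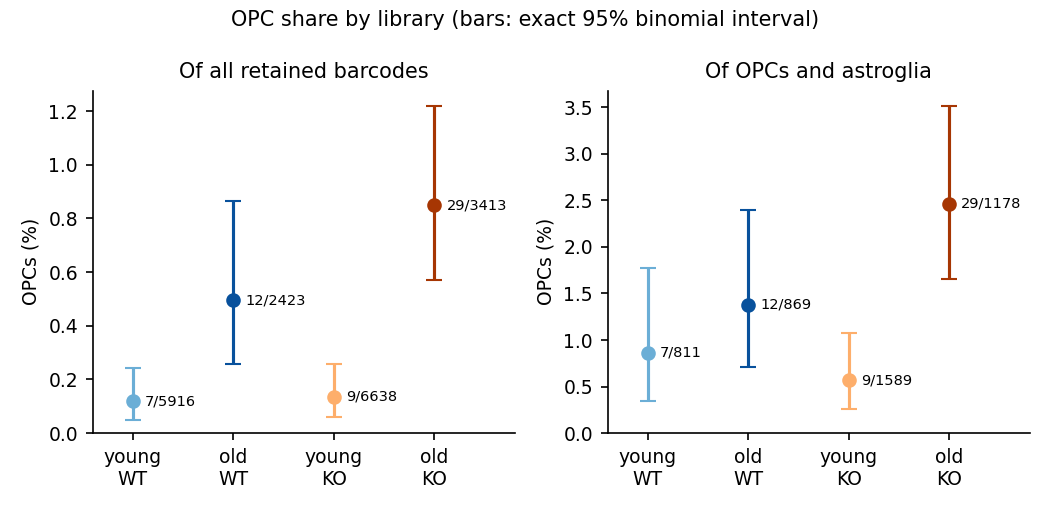
OPCs as a percentage of all retained barcodes (left) and of OPCs and astroglia (right), 1 point per library with its exact 95% binomial interval and the counts beside it. The old libraries lay above the young ones of the same genotype on both denominators, and the WT intervals overlapped on the right.

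The reporter was found in few OPCs. eYFP UMIs were found in 2 of 57 OPCs (3.51%, 0.428 to 12.1; median depth 9526 UMIs), 1 in young WT and 1 in young KO. Microglia, which do not descend from neural stem cells, held eYFP UMIs in 16 of 328 barcodes (4.88%, 2.81 to 7.80; median depth 5264 UMIs). Astroglia held them in 402 of 4390 (9.16%). The OPC interval contains both shares, so OPCs cannot be told apart from either. By library, microglia with eYFP were 10 of 151 in young WT, 0 of 43 in old WT, 5 of 91 in young KO and 1 of 43 in old KO. Most microglia were thus young, while most OPCs were old. Neuroblasts held them in 2617 of 3463 barcodes (75.6%).

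Among receptors, Pdgfra stood at 1677, 2120.4, 1538 and 1621 CPM in young WT, old WT, young KO and old KO. Ednrb, an endothelin receptor, and Gpr37l1, an orphan G protein-coupled receptor, each stood at 1028 CPM. The list of 22 growth factor and ligand receptors had UMIs for 21 genes, and Egfr was the gene with none. Its sum lay between 4566 and 5856 CPM in OPCs and between 4702 and 5184 CPM in astroglia, so it did not set OPCs apart from astroglia. Erbb4, a neuregulin receptor, stood at 115 CPM and Igf1r, the receptor of insulin-like growth factor, at 122 CPM. Of 30 ion channel and neurotransmitter receptor genes, 29 had UMIs. Gria2, an AMPA-type glutamate receptor subunit, was found in all 57 OPCs at 997 CPM, and Cacng4, an auxiliary subunit of AMPA receptors, in all 57 at 956 CPM. Gria3 stood at 358 CPM, against no more than 5.75 CPM in astroglia. Grin3a (NMDA receptor) stood at 205 CPM, Grm5 (metabotropic glutamate receptor) at 196, the potassium channel Kcnd2 at 172 and the sodium channel Scn3a at 152. The list summed to 3793, 5297, 3644 and 3904 CPM in young WT, old WT, young KO and old KO, and astroglia reached 2538 CPM.

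Extracellular matrix genes summed to 16890.6 CPM in young WT, 16374 in old WT, 17121 in young KO and 14939 in old KO OPCs. Astroglia came close, at 13125 to 14118 CPM, and oligodendrocytes did not exceed 1294 CPM. Besides Cspg5 and Ptprz1 the list was carried by Sparcl1, a secreted synapse-associated glycoprotein, at 1936 CPM, and by Ncan and Bcan, the lecticans of perineuronal matrix, at 953 and 938 CPM. Of 33 transcription factors of the lineage, 32 had UMIs, with Tcf4 at 1075 CPM and Nfia at 700.3 CPM after Olig1 and Olig2. Sox2 was listed at 0 in every retained barcode.

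OPCs held few myelin transcripts. Of 14 myelin genes 7 had UMIs, and the list summed to 299, 611, 543 and 509 CPM in young WT, old WT, young KO and old KO. Mog, Mobp, Cldn11, Mal, Ermn, Opalin and Aspa had no UMI. At least 1 myelin UMI was found in 48 of 57 OPCs (84.2%, 72.1 to 92.5), 4 of 7 in young WT, 11 of 12 in old WT, 8 of 9 in young KO and 25 of 29 in old KO.

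Genes of committed precursors were mixed. Sirt2 stood at 587 CPM, Tcf7l2, a factor of newly forming oligodendrocytes, at 190.2 CPM, and Bcas1, a marker of early myelinating cells, at 154 CPM in 37 OPCs. Enpp6, a marker of new oligodendrocytes, had no UMI, and Bmp4 gave 14 UMIs in 9 OPCs. The committed-stage count of at least 3 UMIs over Gpr17, Bmp4, Neu4 and Enpp6 was passed by 42 of 57 OPCs (73.7%, 60.3 to 84.5). This count rested largely on Neu4 with 263 UMIs, which also served above as a marker of OPCs in general. Bmp4 or Enpp6 UMIs were found in 9 of 57 (15.8%), so passing the count is not read as commitment. By library, OPCs past the count were 3 of 7 in young WT, 11 of 12 in old WT, 8 of 9 in young KO and 20 of 29 in old KO. With each cell thinned to 1000 UMIs they were 0 of 7, 0 of 12, 0 of 9 and 1 of 29, or 1.75% of all 57, and young WT, with the lowest share unthinned, was also the shallowest library, so no order is read from these shares.

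A single OPC held most of the cell cycle UMIs. This old KO cell, the deepest OPC at 19167 UMIs, held 157 of the 167 OPC UMIs over Mki67, Top2a, Cdk1, Cenpf, Ccnb1 and Birc5, among them 58 of Cenpf, 46 of Top2a and 10 of Mki67. Of a longer list of 20 cell cycle genes it held 217 of 318 UMIs (68.2%), and 37 of 57 OPCs held at least 1 UMI of that list. It held all 44 Prc1 UMIs and all 16 Ube2c UMIs of the OPCs, and it carried 43 Pdgfra UMIs. Of the 6 genes, 4 other OPCs held 2 UMIs, 2 held 1 and the rest held 0. At least 2 UMIs of the 6 genes were found in 5 of 57 OPCs (8.77%, 2.91 to 19.3), 1 in young WT, 2 in old WT, 1 in young KO and 1 in old KO. Without the dividing cell, the old KO level of Cenpf went from 202 to 0 CPM, that of Top2a from 160.3 to 0 and that of Hmgb2, a chromatin protein, from 234 to 89.6.

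D cyclins and CDK inhibitors were read beside it. Ccnd1, the cyclin that carries growth factor signals into the cell cycle, stood at 898 CPM in young WT, 490.5 in old WT, 362 in young KO and 530 in old KO OPCs, against 18.4 to 25.4 CPM in all other barcodes. It was found in 53 of 57 OPCs, at up to 24 UMIs. In young WT, 1 OPC held 21 of the 45 Ccnd1 UMIs. Cdkn1b, an inhibitor that holds precursors in G1, stood between 106 and 146 CPM in the 4 libraries. The list summed to 1338, 800, 646 and 993 CPM. The ratio of old to young was 0.598 in WT (0.436 to 0.825) and 1.54 in KO (1.14 to 2.12).

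Cdkn2a, chosen after its values were seen, encodes the p16 and p19 inhibitors and lies at chr4:89274471-89294653. It was found in OPCs of the old libraries and in none of the young ones. UMIs numbered 0 in young WT, 3 in old WT, 0 in young KO and 20 in old KO. OPCs with a UMI were 2 of 12 in old WT and 8 of 29 in old KO, with at most 4 UMIs in a cell and 0 in the dividing cell. Over both old libraries, 10 of 41 OPCs held it (24.4%, 12.4 to 40.3; median depth 10277 UMIs). Over both young libraries, 0 of 16 did, which allows a share of up to 18.8% (median depth 8142 UMIs). Each age and genotype was 1 library and cells of a library are not replicates, so a difference with age was not tested.

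Cdkn2a was rare in other cells of the old libraries. It was found in 0 of 2006 astroglia, which allows up to 0.150%, in 2 of 125 oligodendrocytes (1.60%) and in 1 of 86 microglia (1.16%, median depth 6418 UMIs). Of all other retained barcodes of the old libraries, 9 of 5777 held it (0.156%, 0.0713 to 0.296; median depth 7213 UMIs), and in the young libraries 68 of 12530 did (0.543%). Of the barcodes excluded by Frzb or Dcx, 3 of 18 old ones and 0 of 8 young ones held it.

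Receptor transcripts followed genotype for Ifngr1, the ligand-binding chain of the type-II interferon receptor at chr10:19591949-19610229. Ifngr1 gave 4 UMIs in young WT OPCs (79.9 CPM, 21.8 to 204), 14 in old WT (106 CPM, 57.8 to 177), 0 in young KO and 0 in old KO (up to 47.7 and 12.9 CPM). Astroglia of the same libraries stood at 97.4, 88.1, 2.76 and 3.27 CPM. Ifnar1, a type-I receptor chain, gave 2, 5, 0 and 4 UMIs in young WT, old WT, young KO and old KO, or 39.9, 37.7, 0 and 13.9 CPM. Astroglia stood at 27.4, 29.1, 5.14 and 5.61 CPM for Ifnar1. The 3′ reads need not fall in the deleted part of either gene, so these counts are no full check of the labels. Ifnar2, which was not targeted, gave 0, 10, 7 and 22 UMIs.

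ISG levels were highest in old WT OPCs. The core list held 42 genes, of which 40 were found and 22 had UMIs in OPCs. It summed to 479 CPM in young WT (307 to 713; 24 UMIs), 1056 in old WT (889 to 1247; 140 UMIs), 375 in young KO (251 to 538; 29 UMIs) and 561 in old KO (478 to 655; 161 UMIs). Per cell, the lowest, median and highest levels were 151, 470 and 894 CPM in young WT and 97.3, 849 and 2443 CPM in old WT. They were 119, 312 and 714 CPM in young KO and 0, 574 and 1260 CPM in old KO. The libraries overlapped cell by cell, and 4 old WT OPCs lay above every OPC of the other libraries.

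In WT the sum was 2.20-fold higher in old than in young OPCs (1.42 to 3.56), and in KO the ratio was 1.5 (1.0 to 2.31). Between genotypes, WT exceeded KO 1.88-fold in old OPCs (1.49 to 2.38), and in young OPCs the ratio of KO to WT was 0.782 (0.440 to 1.4). In astroglia old WT was also highest and young KO lowest, at 429, 541, 294 and 382 CPM in young WT, old WT, young KO and old KO. These intervals take UMIs as independent, although a few cells held many of them.

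Ifi27, a small mitochondrial ISG product, gave 183 of the 354 core UMIs and was found in 49 of 57 OPCs (86.0%), against 2084 of 4390 astroglia (47.5%) and 708 of 3463 neuroblasts (20.4%; median depths 9526, 7334.5 and 6514 UMIs). It stood at 299 CPM in young WT, 521 in old WT, 168 in young KO and 299.8 in old KO, and 12 of 12 old WT OPCs held it, with 1 to 12 UMIs each. Without Ifi27, the other genes summed to 180 CPM in young WT (82.2 to 341), 536 in old WT (418 to 676), 207 in young KO (118 to 336) and 261 in old KO (206 to 328). The ratio of old to young was then 2.98 in WT (1.49 to 6.79) and 1.26 in KO (0.730 to 2.32), and WT exceeded KO 2.05-fold in old OPCs (1.46 to 2.87). Isg15, Irf7 and Usp18 had no UMI in any OPC.

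Antigen presentation genes summed to 579 CPM in young WT, 958 in old WT, 711 in young KO and 784 in old KO OPCs. The ratio of old to young was 1.66 in WT (1.10 to 2.57) and 1.10 in KO (0.819 to 1.51). H2-D1, a class I heavy chain, stood at 160, 204, 220 and 181 CPM in the same order. The class II genes Cd74, H2-Aa, H2-Ab1 and H2-Eb1 had no UMI in OPCs.

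**Figure D4:**
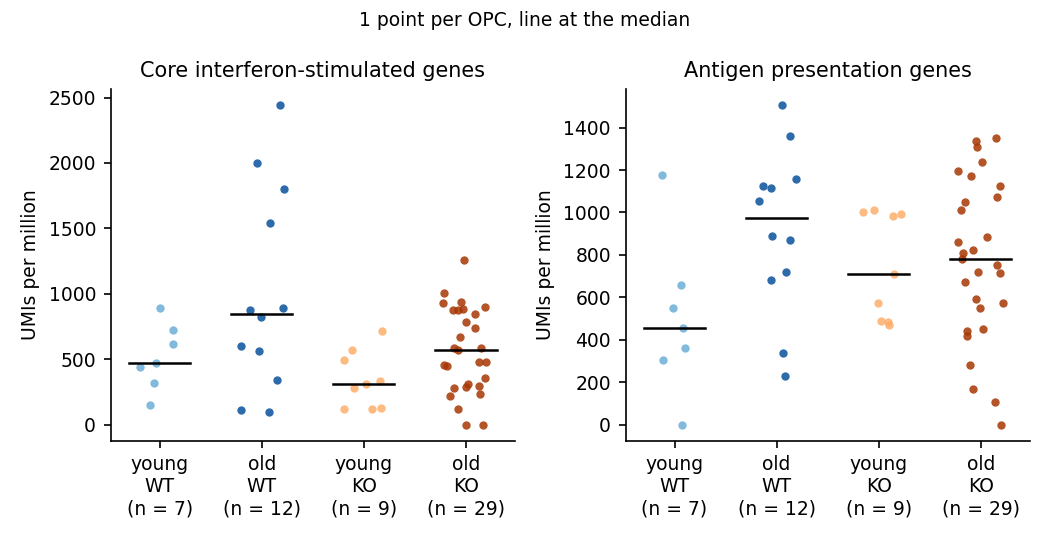
Summed level of the core interferon-stimulated genes (left) and of the antigen presentation genes (right) in CPM, 1 point per OPC and a line at the median of each library. The median for the core list was 849 CPM in old WT against 312 to 574 in the other 3 libraries, and the points of all libraries overlapped.

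A broader score summed log-transformed CPM over 300 interferon response genes of the study, of which 288 were found, after each cell was thinned to 1000 UMIs. The mean over OPCs was 52.5 in young WT, 53.6 in old WT, 50 in young KO and 41.8 in old KO, with SDs over cells of 17.8, 17.3, 13.9 and 16.2. On this score old WT was not set apart from young WT. OPCs differed from astroglia by -0.943 ± 5.48 (SD, n = 4 libraries; higher in 3 of 4; two-sided exact sign-flip permutation p = 1, adjusted p = 1 over 4 pairs). They differed from oligodendrocytes by 0.472 ± 5.48 (SD, n = 3 libraries; higher in 1 of 3; exact p = 1, adjusted p = 1, smallest possible p 0.25). Neither difference exceeded the spread between libraries. OPCs scored above neuroblasts by 26.8 ± 5.49 (SD, n = 4; higher in 4 of 4; exact p = 0.125, adjusted p = 0.25) and below microglia by 39.7 ± 4.91 (SD, n = 4; higher in 0 of 4; exact p = 0.125, adjusted p = 0.25), where 0.125 is the smallest p that 4 libraries allow.

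Immediate early genes, which respond within minutes to stimulation or tissue handling, varied widely among OPCs of the same library. The list summed to 5191 CPM in young WT (4579 to 5862), 8421 in old WT (7934 to 8930.1), 9019 in young KO (8362 to 9714) and 6179.8 in old KO (5895 to 6474). Per cell, the lowest, median and highest levels were 1127, 3726 and 20733 CPM in young WT and 1310, 6043 and 20696 CPM in old WT. In young KO they were 1243, 8704 and 18572 CPM, and in old KO 689, 3183 and 19955 CPM. Levels of at least 10000 CPM were reached by 15 of 57 OPCs, 1 in young WT, 4 in old WT, 3 in young KO and 7 in old KO, so each library held low and high cells.

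The list moved in opposite directions with age. The ratio of old to young was 1.62 in WT (1.42 to 1.86), and young exceeded old 1.46-fold in KO, a ratio of old to young of 0.685 (0.627 to 0.749). In young OPCs, KO exceeded WT 1.74-fold (1.5 to 2.01). Astroglia stood at 1879, 2249, 3077 and 1957 CPM in young WT, old WT, young KO and old KO, with young KO highest as in OPCs, and microglia stood between 52381 and 59774 CPM. The part of tissue handling in these values was not tested.

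Of 22 immediate early genes, 12 reached 50 OPC UMIs, the level at which ratios were read gene by gene. With age in WT, 5 of 12 were past 2-fold higher, against a background of 9.19% of 2371 genes, and the median log2 ratio was 0.78 against -0.04 over all genes. With age in KO, 5 of 12 were past 2-fold lower (background 2.49%), with a median of -0.73 against 0.03. Between genotypes in young OPCs, 7 of 12 were higher in KO (background 9.83%), with a median of 1.48. In old OPCs, 1 was higher in KO (background 2.83%) and 1 lower (background 1.39%), with a median of -0.39. Comparisons that share a library are not independent: the age comparison in WT and the genotype comparison in young OPCs both use the young WT library, and the age comparison in KO does not. The 12 genes are not independent either, as the list as a whole reached 10000 CPM in 15 of 57 OPCs. Which cells a library held can move several genes at once, so the counts past 2-fold are not read as enrichment.

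Fos, the AP-1 subunit, stood at 1617, 2392, 2933 and 2046 CPM in young WT, old WT, young KO and old KO, in 45 of 57 OPCs and at 0 to 87 UMIs per cell. Egr1, a zinc finger factor, gave 2 UMIs in young WT, 100 in old WT, 64 in young KO and 113 in old KO, or 39.9, 755, 827 and 394 CPM. It was 18.9-fold higher in old WT than in young WT (5.10 to 158) and was found in 1 of 7, 7 of 12, 6 of 9 and 14 of 29 OPCs. Up to 28 of the 100 old WT UMIs lay in 1 OPC, and the interval does not cover such spread between cells. Socs3, the feedback inhibitor of JAK and STAT signals, gave 0, 6, 12 and 72 UMIs, and the dividing OPC held 18 of the 72. It was 5.54-fold higher in old KO than in old WT (2.43 to 15.6).

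**Figure D5:**
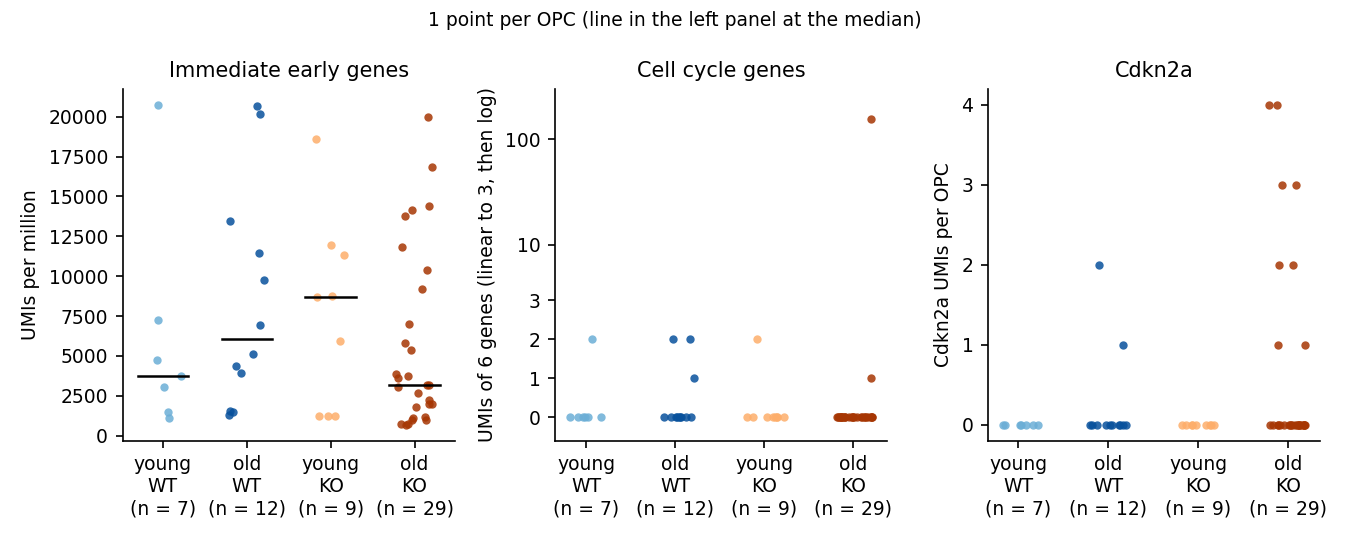
CPM of the immediate early genes with a line at the median (left), UMIs of 6 cell cycle genes on an axis linear to 3 and logarithmic above (middle) and UMIs of Cdkn2a (right), 1 point per OPC. Immediate early levels ran from 689 to 20733 CPM, 1 old KO OPC held 157 cell cycle UMIs, and Cdkn2a was found in 2 old WT and 8 old KO OPCs.

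Across all genes, OPC libraries were compared as ratios of CPM with a pseudocount of 5 for the 2371 genes with at least 50 OPC UMIs. With age in WT, 218 genes were past 2-fold higher (9.19%) and 166 lower (7.0%). With age in KO, 137 were higher (5.78%) and 59 lower (2.49%). Between genotypes, KO was past 2-fold higher for 233 genes (9.83%) and lower for 202 (8.52%) in young OPCs, and higher for 67 (2.83%) and lower for 33 (1.39%) in old OPCs. The comparisons with young WT, the library of 7 OPCs, had the most genes past 2-fold. Without OPCs past the cycling or committed-stage counts, 14 cells were left: 4 in young WT, 1 in old WT, 1 in young KO and 8 in old KO. The balance then turned for age in WT (523 higher and 920 lower) and for genotype in young OPCs (482 higher and 1122 lower). Each of these comparisons set 1 cell against 4, so no direction is read from the turn. Averaged over both genotypes, old exceeded young past 2-fold for 78 genes (3.29%) and young exceeded old for 21 (0.886%). Averaged over both ages, KO exceeded WT for 51 genes (2.15%) and WT exceeded KO for 29 (1.22%).

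Of 14 OPC markers outside the rule with at least 50 UMIs, 0 were past 2-fold in either direction in each of the 4 comparisons, with median log2 ratios of 0.25 and -0.04 with age in WT and in KO, and -0.04 and -0.33 between genotypes in young and in old OPCs. The background per direction was 1.39% to 9.83%, so a count of 0 among 14 is near it and nothing is read from it about these markers. Of 10 extracellular matrix genes, Col9a3, a collagen chain, was past 2-fold, lower in old KO than in young KO and in old WT, at 180 CPM in young WT, 143 in old WT, 181 in young KO and 48.8 in old KO. Of 10 channels and receptors, with age in WT 1 was past 2-fold higher and 1 lower, against backgrounds of 9.19% and 7.0%. Gria4, an AMPA receptor subunit, was the higher one, at 120 CPM in young WT and 257 in old WT, and Scn3a the lower one, at 259.5 and 67.9 CPM on 13 and 9 UMIs. With age in KO, 1 of the 10 was lower (background 2.49%), and between genotypes in old OPCs Scn3a was higher in KO, at 164 CPM (background 2.83%). Each of these counts is 1 gene of 10, and nothing is read from them about the list.

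Among the 10 genes furthest apart in each direction, many rested on a library with few UMIs. Npy, a neuropeptide that is also a marker of olfactory ensheathing glia, gave 0 UMIs in young WT, 23 in old WT, 3 in young KO and 25 in old KO. It was found in 0 of 7, 8 of 12, 3 of 9 and 17 of 29 OPCs, with 11 of the 23 old WT UMIs in 1 cell. Npy UMIs were found in 28 of 57 OPCs (49.1%), in 33 of 328 microglia (10.1%) and in 519 of 4390 astroglia (11.8%), at median depths of 9526, 5264 and 7334.5 UMIs. In astroglia the log2 ratio of old WT to young WT was 1.36. Hcfc1, a transcriptional co-regulator, gave 0 and 17 UMIs in young WT and old WT, and Hdac2, a histone deacetylase, 0 and 11.

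young KO stood alone for Akap7, a kinase anchoring protein, and Pcmtd1. Akap7 stood at 180 CPM in young WT, 143 in old WT, 0 in young KO and 132 in old KO, and Pcmtd1 at 160, 113, 0 and 132 CPM. The same ratios in astroglia were near 0 on the log2 scale, at -0.03 and 0.06 for young KO against young WT. Cenpf and Top2a led the genes higher in old KO, and the dividing OPC held their old KO UMIs entirely.

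In old OPCs, genes lower in KO than in WT had more UMIs behind them. Vegfa, the vascular growth factor, gave 93 UMIs in old WT and 84 in old KO, or 702 and 293 CPM, and was 0.417-fold in KO (0.307 to 0.567), although 49 of the 93 lay in 1 old WT OPC. Galnt13, a glycosyltransferase, stood at 332 and 105 CPM, Adcyap1r1, the receptor of the peptide PACAP, at 219 and 69.7, and Srebf2, the regulator of cholesterol synthesis, at 174 and 55.8. Their log2 ratios in astroglia were 0.19, -0.05 and -0.19. Lmcd1, a LIM domain protein, was higher in old KO, at 136 against 37.7 CPM (3.6-fold, 1.42 to 11.7), and its value did not rest on the dividing cell, which held 1 of 39 UMIs.

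Spread among single OPCs was concentrated in a few genes. Of 3926 genes with at least 30 UMIs, 291 (7.41%) had a Pearson dispersion above 2, where 1 is the value for counts that vary by sampling and depth alone, and the median was 1.26. The nuclear RNA Malat1 had the highest value, 77.6, on 38124 UMIs. At equal relative spread this value rises with a gene's level, so the order favours abundant genes. It was computed over the OPCs of all 4 libraries together, so differences between libraries enter it. Fos (21.6), Jun (12.9) and Egr1 (10.6) were among the leading genes, as were Cenpf (26.2), Prc1 (21.6) and Top2a (20.9), which rested on the dividing OPC.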

How the data were processed

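Per the study's methods, the authors counted reads with kallisto and bustools and hashtags with CITE-seq-Count. The 4 libraries were deposited as UMI counts (genes by barcodes), with a table of hashtag counts. Per the submitters' processing notes the build was GRCm38, and Scanpy 1.6.0 was used. Gene positions were taken from GENCODE by ID. CPM are UMIs per 1000000 UMIs of the summed cells. Intervals were exact binomial (Clopper-Pearson), exact Poisson or, for ratios, conditional binomial, in scipy 1.17.1. Doublets were predicted per library with Scrublet in scanpy 1.11.5 (335 barcodes). Astroglia, neuroblasts, oligodendrocytes and microglia were gated on Aqp4, Dcx, Mog with Mag and Cldn11, and Cx3cr1 with P2ry12 and Csf1r. Libraries shared 3 to 9 retained barcodes per pair. Hashtag calls were tested on simulated data with far more counts per cell than OPCs held, so that test does not cover calls in OPCs. A stricter call, on higher probability and more counts, kept 1 OPC in young WT, 0 in old WT, 0 in young KO and 1 in old KO. Count tests per mouse needed 10 OPCs in a mouse, which 0 mice had, so library sums are described. Members and lists were chosen with earlier results of these data known. Genes named from ratios were the 10 furthest apart each way with at least 50 OPC UMIs, and leading genes were in at least 20% of OPCs. 1 sample without a group was not used. UMIs of Y-linked genes and Xist were left out. Some results are not reported here.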

Additional observations from a re-analysis of the deposited data

Results flagged for a closer look

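In 2 gene lists the direction with age differed between genotypes in OPCs. Immediate early genes had a ratio of old to young of 1.62 in WT and 0.685 in KO, a log2 difference of -1.24. D cyclins and CDK inhibitors had ratios of 0.598 in WT and 1.54 in KO, a log2 difference of 1.36. Each group was 1 library, so neither difference was tested. In old KO, 15 of the 18 Cdkn2c UMIs lay in the dividing OPC. In young WT the list of D cyclins and CDK inhibitors gave 67 UMIs, and 21 of these were Ccnd1 UMIs of 1 OPC. The young WT library, with 7 OPCs and the lowest depth, enters both differences, and its part in them was not tested.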

How the results depend on the processing

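Of 117 alternative values, 83 were counted as unchanged, 29 moved and 5 reversed. Unchanged meant within 1.5 times the main count for gene counts, and within the main interval for shares. For score differences it meant the same sign only, whatever the size. The score difference from oligodendrocytes, 0.472 in the main setting and 39.9 with all UMIs, was thus counted as unchanged. The 83 include settings that kept the same OPCs, where the gene counts could not change. Counts of genes past 2-fold were 384 for age in WT, 196 for age in KO, 435 for genotype in young, 100 for genotype in old, 99 for age over both genotypes and 80 for genotype over both ages. In that order they were 5485, 4198, 5217, 3397, 3340 and 3074 with no filter on low counts (12777 genes), 1169, 1106, 1264, 1027, 1210 and 1143 with each cell thinned to 1000 UMIs, and 1443, 1709, 1604, 1327, 1289 and 1235 without cycling and committed OPCs, which left 14 cells. In that last setting more genes were lower than higher for age in WT (920 against 523), genotype in young (1122 against 482) and genotype over both ages (696 against 539), the opposite of the main balance. The old WT and young KO libraries were then 1 cell each, beside 4 in young WT and 8 in old KO, so no direction is read from it. With no limit on Frzb, Dcn and Dcx, an alternative added after seeing the data, they were 247, 77, 272, 44, 44 and 40, and the OPC share in old KO was 1.23%. Counts were thus higher with low-count genes let in, with thinned cells and with fewer cells, and lower with more cells. These settings differ in their genes or cells as well as in UMIs per gene, and the cause of the changes was not tested. Thinned to 1000 UMIs, cycling OPCs were 1.75%, OPCs past the committed-stage count 1.75% and OPCs with myelin UMIs 31.6%. Old OPCs with Cdkn2a UMIs were 7.32%. The score difference from astroglia turned to 1.78 without old KO, 10.6 with all UMIs and 1.42 with the core list, and that from oligodendrocytes to -2.64 without old WT and -5702 as summed CPM. The cause of these reversals was not tested. Leaving out each library gave -2.10 to 1.78 against astroglia, -2.64 to 2.55 against oligodendrocytes, 25.5 to 29.4 against neuroblasts and -42.0 to -38.2 against microglia. Scaling by the median of ratios, thresholds of 3 or 6 UMIs for Pdgfra and Cspg4, and removal of doublets or of the dividing OPC changed no count of genes by over 1.5 times. The threshold of 3 and the removal of doublets kept the same 57 OPCs, so they could not change these counts. No barcode within the other limits held 3 of these UMIs, and 0 OPCs were predicted doublets. No paired analysis was possible because 13 of 57 OPCs could be given to a mouse. For the same reason the interaction, the tissue comparison, the other count test, comparisons on strict hashtag calls and leaving out each mouse were not run. With 7 to 29 OPCs in a library, a gene at 10 CPM gives few or no UMIs, so its absence cannot be read.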
